A study of Neurospora crassa OR74A with 26 samples.

Results

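The genes described here are the 115 of 9733 measured Neurospora crassa genes whose transcript level was higher in both strains lacking a cellulase regulator than in wild type after 4 h on Avicel, a crystalline cellulose. A gene was taken when its level was at least 20 FPKM (fragments per kilobase of transcript, scaled to the mapped reads of the library) in the clr-1 deletion and in the clr-2 deletion, when each of these values plus 1 was at least 2 times the wild-type mean plus 1, and when both lay above the highest of the 3 wild-type libraries. The higher level on Avicel at 4 h is therefore the basis of the choice and not a result. The groups were the clr-1 deletion strain (FGSC 11029, gene NCU07705 replaced by a hygromycin resistance cassette, written cdr1 in the sample titles), the clr-2 deletion strain (FGSC 15835, NCU08042 replaced in the same way, written cdr2) and the wild type FGSC 2489. All cultures were started from conidia, grown for 16 h in sucrose and washed, and then received Avicel, sucrose or no carbon source. At 1 h and at 4 h each deletion strain has 1 library per medium for Avicel and sucrose, 8 in all and without replicates. The 18 wild-type libraries comprise triplicates for Avicel and for sucrose (1 h and 4 h each) and for no carbon (4 h), with 1 library each for no carbon at 1 h and for Avicel at 30 min and 2 h. Deletion strains without carbon were not analysed here.

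clr-1 and clr-2 encode zinc-cluster transcription factors that a filamentous fungus such as N. crassa needs to make cellulases. A strain without them cannot turn cellulose into sugar. The wild type without carbon shows which genes go with starvation, and the cultures on sucrose show where the strains differ in a medium that all of them can use. N. crassa has the mating types A and a, which carry different genes at the mating-type locus and express different pheromone precursors, ccg-4 in A and mfa-1 in a, and different pheromone receptors. Under carbon limitation the fungus uses the glyoxylate cycle to make sugars from acetyl-CoA and begins to form conidia.

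The labels were checked first. clr-2 was listed at 0 in all 4 libraries of its deletion strain, and clr-1 had 11.01 FPKM in the clr-1 deletion on Avicel at 4 h, against 518.6, 936.3 and 950.3 FPKM in wild type. The libraries hold 11.8 M to 110.6 M reads, recovered from the deposited values. Replicate 1 of wild type on Avicel and on sucrose, and the Avicel 30 min and 2 h libraries, have reads of 36 or 40 bases, the no-carbon libraries have 51 and the others 50, so read length and medium cannot be told apart in comparisons with the no-carbon cultures. All 6 housekeeping markers were above 0 in every library. The 5 conidia markers con-6, con-10, con-13, eas and ccg-1 were all above 0 on Avicel at 4 h, with sums of 160800 and 169800 FPKM in the deletion strains, 89290 to 157200 FPKM in wild type, and 341000 to 380900 FPKM in wild type without carbon. Without ccg-1 the sums were 15060 and 22690 FPKM in the deletion strains and 18530 to 36870 FPKM in wild type on Avicel, so the groups overlap. The part of conidiation in the results was not tested. In bulk RNA, fewer cells of a type and less RNA per cell cannot be told apart.

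The 115 genes ranged widely above the 2-fold limit. The smaller of the 2 deletion ratios to wild type ran from 2.01 to 320.5 with a median of 2.48, was at least 5 in 11 genes and stayed under 2.5 in 58. The median level over the genes was 420.1 FPKM in the clr-1 deletion and 310.5 FPKM in the clr-2 deletion, against 84.6 FPKM for the wild-type means on Avicel. The clr-1 deletion had the higher level of the 2 strains in 94 genes and the clr-2 deletion in 21, and the strains lay within 1.5 times of each other in 77. Each strain is 1 library here and the shares over all tested genes were not taken, so nothing is read from these counts. In the transcriptome as a whole 1.33% of the 8629 tested genes met the rule. Only 11 of the 115 have a gene symbol, and the other 104 are given by locus number because the files and the reference table give no symbol for them.

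A single library decides part of the list. Replicate 1 of wild type on Avicel at 4 h, the 40-base library with 11.8 M reads, was the lowest of the 3 wild-type libraries for 68 of the 115 genes and listed 16 of them at 0. Without it the rule took 136 genes, of which 73 are among the 115. The 42 genes that dropped out all had their lowest wild-type value in that library, and 14 of them were at 0 there. In 64 genes the call held without any 1 of the 3 wild-type libraries and after rescaling the libraries, and counts for the 73 are given beside those for all 115. The genes just inside the limit were NCU08366, NCU01989 and cys-16 at ratios of 2.025, 2.022 and 2.01, and those just outside were NCU09057, NCU07310 and NCU04168 at 1.997, 1.996 and 1.993.

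Against the wild type without carbon and against the strains on sucrose, the genes fell into 4 classes. A gene was put in the no-carbon class when wild type without carbon at 4 h was at least 2 times wild type on Avicel (both plus 1) and every no-carbon library lay above every Avicel library. It was put in the sucrose class when both deletions on sucrose at 4 h were at least 2 times wild type and above its highest library. The no-carbon class alone held 30 genes, the sucrose class alone 9, both classes 13 and neither class 63. The no-carbon class in all thus had 43 of the 115 genes, or 37.4%, where 4.64% of all tested genes met the same criterion, and since it shares the wild-type Avicel libraries with the rule nothing is read from that difference. The sucrose class in all had 22 genes, or 19.1%, against 4.57% of all tested genes. Among the 73 genes kept without the short-read Avicel library, 24 were in the no-carbon class and 9 in the sucrose class, and 10 of the 13 genes of both classes are not among the 73. The map of all libraries shows these classes.

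**Figure D1:**
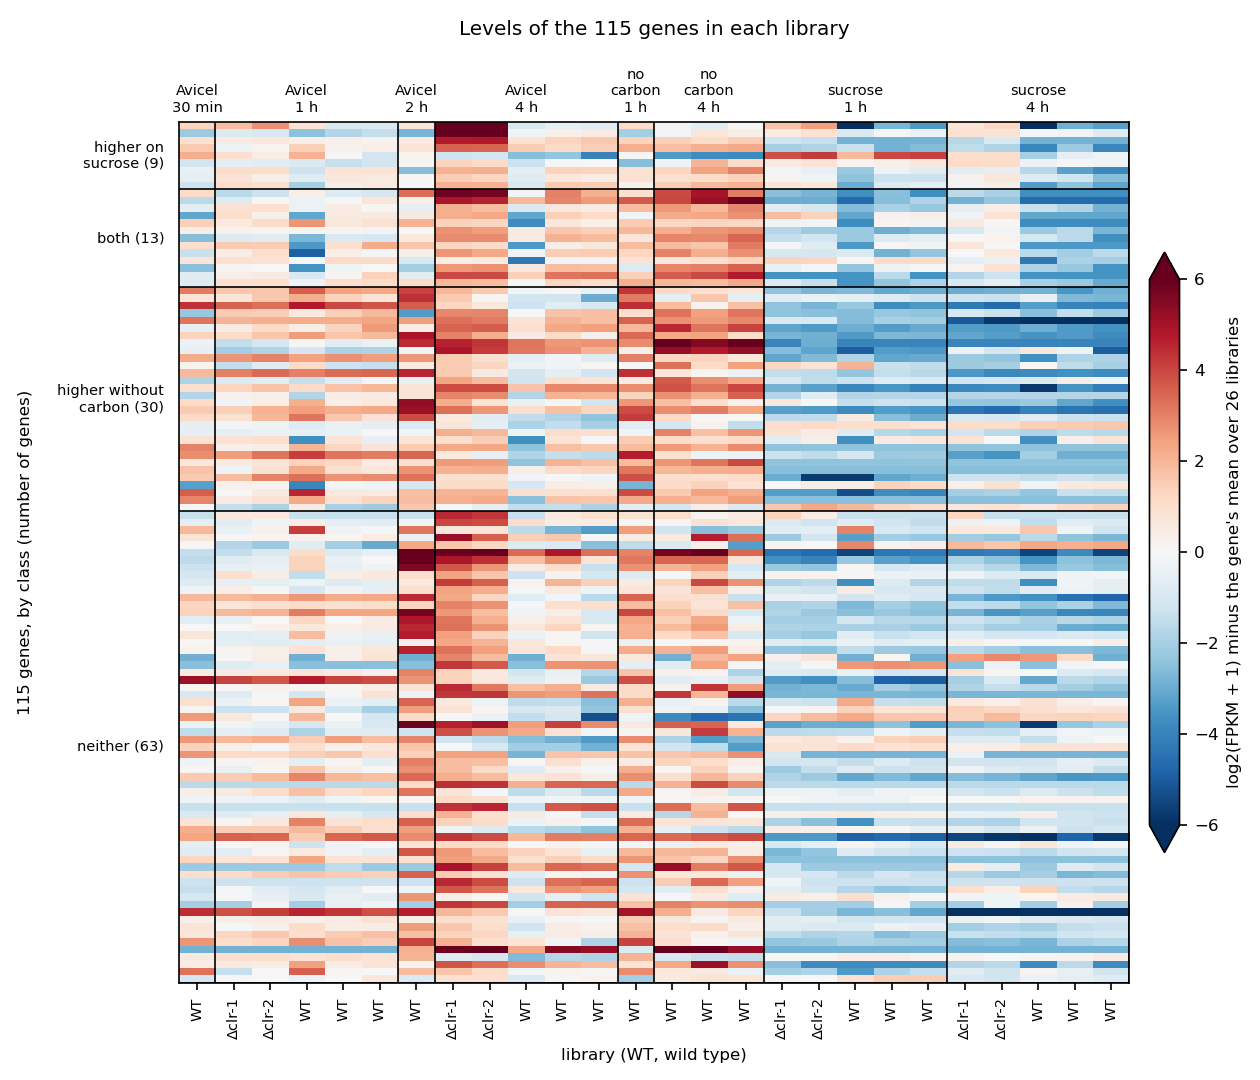
Heat map of the 115 genes (rows, grouped by class and ordered by the smaller deletion ratio) in the 26 libraries (columns), coloured by log2(FPKM + 1) minus the gene's mean over all libraries. The sucrose libraries at the right are low for most rows, and NCU11646 and NCU01298, the top rows of the sucrose class, are darkest in the deletion libraries on Avicel at 4 h.

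The largest ratios belonged to NCU11646, on supercontig 5 at 3396270 to 3397430 in the coordinates of the deposited files. Its level on Avicel at 4 h was 18000 FPKM in the clr-1 deletion and 17850 FPKM in the clr-2 deletion, against 46.6, 59.8 and 57.8 FPKM in wild type, a ratio of at least 320.5 in each strain. Wild type without carbon stayed at 81.6, 55.3 and 93.4 FPKM, close to its level on Avicel. On sucrose at 4 h the gene had 161.7 and 213.1 FPKM in the deletions, against 0, 11.3 and 8.67 FPKM in wild type. On sucrose at 1 h it had 293.2 and 499.9 FPKM in the deletions, against 0, 12.8 and 7.74 FPKM in wild type, and on Avicel at 1 h 328.2 and 606.5 FPKM, against 167.4, 45.4 and 48.1 FPKM. In each of these media and times both deletion libraries lay above every wild-type library.

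The difference of NCU11646 on sucrose was tested in libraries that the rule did not use. At 1 h the mean of both deletions was higher than wild type by 6.28 on the log2(FPKM + 1) scale (SE 1.09, limma adjusted p = 0.029), which made it the only one of the 115 genes to pass at that time, where 0.0348% of all tested genes were called higher and 0.209% lower. It did not pass with a pseudocount of 0.1 (7.47, limma adjusted p = 0.23), nor without replicate 1 (5.13, limma adjusted p = 0.050) or replicate 3 (6.69, limma adjusted p = 0.061) of wild type. For each deletion alone, a fit that rests on 1 library, it did not pass either. With both deletions together it passed under the other settings tried. Among these were a pseudocount of 10 (4.62, limma adjusted p = 0.0005) and leaving out the 36- and 40-base libraries (5.13, limma adjusted p = 2.2e-05), a setting chosen after the data were seen. At 4 h the difference was 5.25 (SE 1.09, limma adjusted p = 0.060), which does not pass. In the files the gene lies between NCU01257 and NCU01258, and the reference table places mfa-1 between the same neighbours under another locus number, NCU16992, but does not pair the 2 identifiers.

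Next came NCU01298, on supercontig 5 at 3569386 to 3570367. It had 3280 and 3210 FPKM in the clr-1 and clr-2 deletions on Avicel at 4 h, against 40.7, 60.6 and 69.3 FPKM in wild type, and 43.9, 81.6 and 61.4 FPKM in wild type without carbon. On sucrose at 4 h the deletions had 94.1 and 84.4 FPKM, against 46.4, 42.9 and 29.5 FPKM in wild type. The deletions were again the highest in every medium and time, but by much less away from Avicel at 4 h, and the difference on sucrose at 4 h did not pass (log2 1.18, SE 0.38, limma adjusted p = 0.18).

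The receptor gene pre-2, which encodes the pheromone receptor of mating type a, followed the same course. It lies on supercontig 7 at 526200 to 527900 and had 194.2 and 197.8 FPKM in the clr-1 and clr-2 deletions on Avicel at 4 h, against 12.2, 16.8 and 20.6 FPKM in wild type. Wild type without carbon gave 18.3, 14.4 and 19.0 FPKM, inside its range on Avicel. On sucrose at 4 h it had 1.30 and 2.74 FPKM in the deletions and was listed at 0 in all 3 wild-type libraries, and the same held at 1 h with 2.10 and 1.76 FPKM in the deletions. These differences of 1.55 on the log2 scale (SE 0.31) had limma adjusted p values of 0.051 at 4 h and 0.062 at 1 h and did not pass. NCU02021, a short gene on supercontig 1 at 1650820 to 1651386, had 57.4 and 47.5 FPKM in the clr-1 and clr-2 deletions on Avicel at 4 h, against 0, 2.76 and 3.84 FPKM in wild type, and was listed at 0 in all wild-type libraries on sucrose, where 3 of the 4 deletion libraries were above 0.

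The mating type A genes matA-1, ccg-4 and, in part, pre-1 went the other way in the same libraries, although they are not among the 115. matA-1, a transcription factor gene of the A locus, was listed at 0 in all 8 deletion libraries, against 46.8, 282.6 and 336.6 FPKM in wild type on Avicel at 4 h. ccg-4, the pheromone precursor gene of mating type A, was also listed at 0 in all 8 deletion libraries, against 1211, 3252 and 3710 FPKM in wild type on Avicel at 4 h and at least 3.29 FPKM in each of the 18 wild-type libraries. pre-1, the pheromone receptor gene of mating type A, had 20.7 and 23.01 FPKM in the clr-1 and clr-2 deletions on Avicel at 4 h, against 19.0, 218.3 and 247.7 FPKM in wild type, so the groups overlap. On sucrose at 1 h the log2 difference was -4.41 in matA-1 (SE 1.07, limma adjusted p = 0.15), -4.83 in ccg-4 (SE 1.02, limma adjusted p = 0.09) and -1.31 in pre-1 (SE 0.90, limma adjusted p = 0.97). None of them passed. The A locus genes matA-2 and matA-3 did not reach the mean of 1 FPKM needed for testing. The labels name the strains by stock number and not by mating type, so that a difference in mating type and the deletions cannot be told apart here. Of the 9 genes in the list for mating type and pheromones 7 are in the files, and pre-2 is the only one among the 115.

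**Figure D2:**
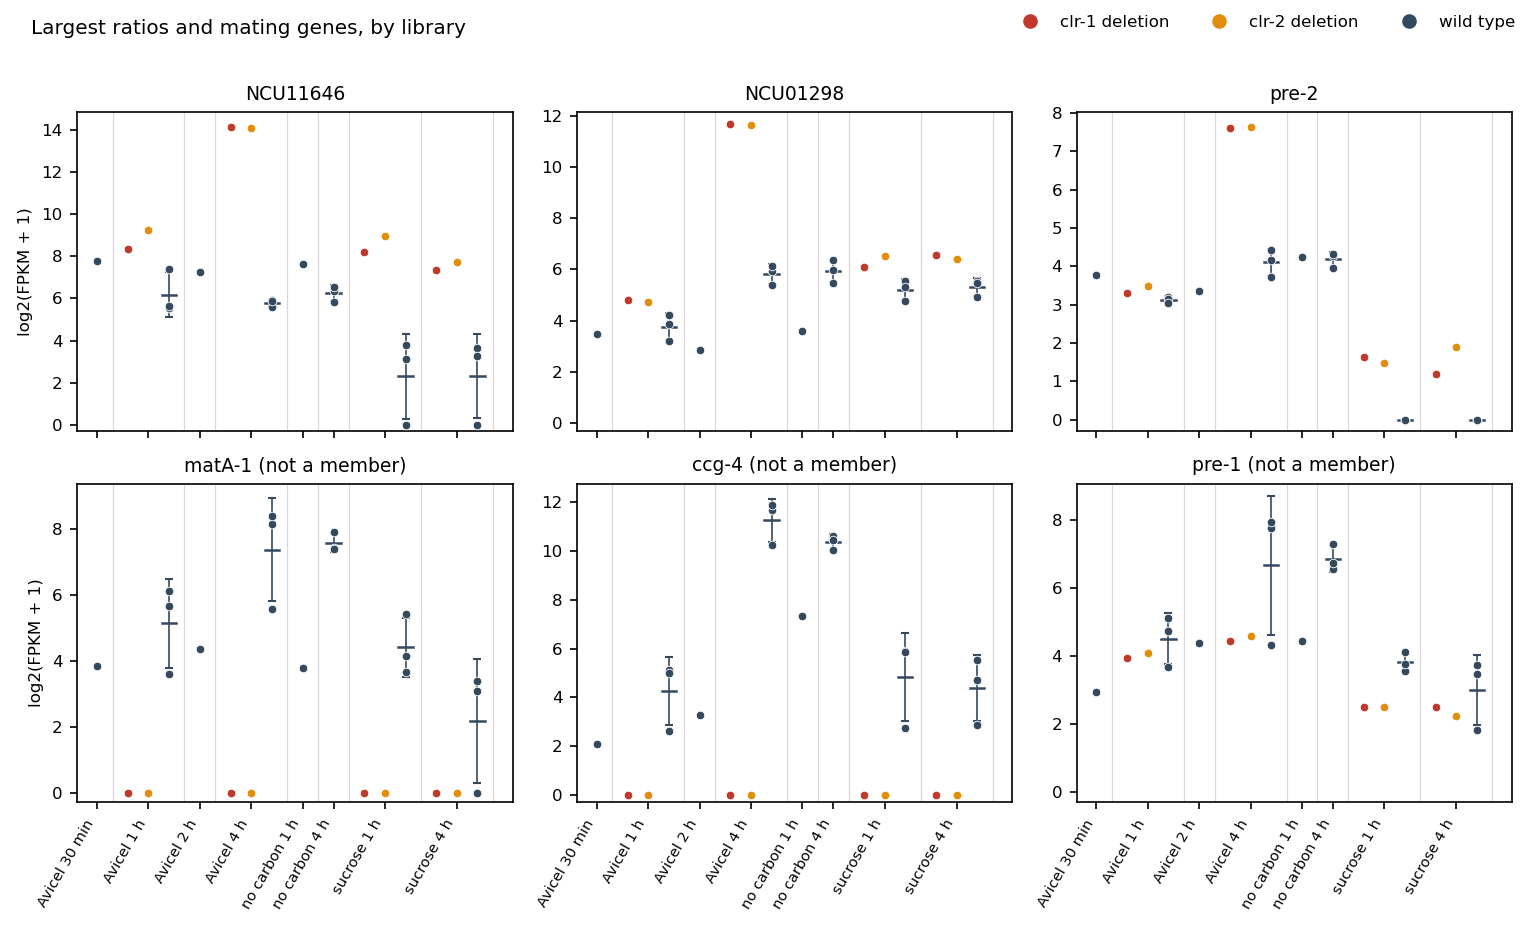
Level of 6 genes, as log2(FPKM + 1), in every library by medium and time, with 1 dot per library and, for the wild-type triplicates, a line at the mean and a bar for the SD. NCU11646, NCU01298 and pre-2 are highest in the 2 deletion libraries on Avicel at 4 h, and matA-1 and ccg-4 are at 0 in all 8 deletion libraries.

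On Avicel at 4 h the other genes of the sucrose class had smaller ratios to wild type than NCU11646, NCU01298 and pre-2. On sucrose at 4 h the log2 difference was 3.06 in NCU01989 (SE 0.88, limma adjusted p = 0.14) and 2.0 in pho-4 (SE 0.86, limma adjusted p = 0.35), beside 1.18 in NCU01298, and none of them passed. NCU01989 had 874.9 and 859.7 FPKM in the deletions on Avicel at 4 h, against 110.5, 598.5 and 565.3 FPKM in wild type, and on sucrose at 4 h 177.0 and 260.4 FPKM, against 18.8, 37.2 and 21.7 FPKM. Its higher sucrose level thus showed in every library, while its place among the 115 depends on the short-read Avicel library. NCU06597 had 64.9 and 73.6 FPKM in the deletions on sucrose at 4 h, against 32.7, 10.5 and 6.36 FPKM in wild type, and NCU06506 had 85.5 and 117.0 FPKM, against 41.6, 31.2 and 11.4 FPKM. The phosphate permease gene pho-4 had 46.4 and 49.6 FPKM in the clr-1 and clr-2 deletions on Avicel at 4 h, against 18.2, 20.4 and 5.95 FPKM in wild type. On sucrose at 4 h pho-4 reached 233.2 and 233.3 FPKM in the deletions, against 27.2, 77.4 and 90.8 FPKM in wild type. pho-4 overlaps the gene model NCU12070, and as the strand used in counting is not given its reads and those of NCU12070 cannot be told apart.

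Over all 115 genes the deletions on sucrose at 4 h gave 0 calls in either direction, where 0.243% of all tested genes were called higher and 0.116% lower by limma. The median difference was 0.35 over the 115 genes and 0.03 over all tested genes on the log2 scale, and 23 of the 115 genes had an unadjusted p under 0.05, or 20%, against 12.6% of all tested genes. When the 36- and 40-base libraries were left out, 24 of the 115 genes were called higher and 0 lower, or 20.9%, where 11.6% of all tested genes were called higher and 11.7% lower. That setting was chosen after the data were seen. At 1 h the same setting called 10 higher and 3 lower, where 2.75% of all tested genes were called higher and 2.76% lower. The 24 genes at 4 h include NCU11646 (4.10, SE 0.27, limma adjusted p = 6.4e-05), pre-2 (1.55, SE 0.22, limma adjusted p = 0.0012), ncw-6 (2.26, SE 0.37, limma adjusted p = 0.0026) and cat-1 (2.71, SE 0.52, limma adjusted p = 0.0054). Without replicate 1 of wild type on sucrose alone limma called 5 of the 115 higher and 0 lower at 4 h, where 5.44% of all tested genes were called in either direction. Of the 24 genes 19 are in the sucrose class, which the same cultures define, and 8 are among the 73.

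Without a test, both deletions lay above every wild-type library on sucrose at 4 h in 38 of the 115 genes, where 22.1% of tested genes did so, and below every one in 13, where 13.5% did so. On sucrose at 1 h they lay above in 29, where 18.0% of tested genes did so, and below in 14, where 19.6% did so. On Avicel at 1 h they lay above in 17, where 10.9% of tested genes did so, and below in 18, where 14.7% did so. NCU11646, NCU01298, pre-2, NCU01989 and ncw-6 were above every wild-type library in these 3 settings and on Avicel at 4 h, where the rule requires it and 28.1% of tested genes did so. The share of tested genes above in all 4 together was not taken, so nothing is read from the number of these genes. ncw-6, a cell wall protein gene, had 395.1 and 328.4 FPKM in the clr-1 and clr-2 deletions on Avicel at 4 h, against 47.9, 141.6 and 125.7 FPKM in wild type, and 63.2 and 115.7 FPKM on sucrose at 4 h, against 35.04, 24.9 and 11.5 FPKM.

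Early on Avicel the strains did not separate by this test. On Avicel at 1 h limma called 0 of the 115 genes higher and 0 lower in the deletions, where 0.0% of all tested genes were called higher and 0.0811% lower, and 5 of the 115 had an unadjusted p under 0.05, or 4.35%, near the 3.84% of all tested genes. The median difference was -0.15 over the 115 genes and 0.00 over all tested genes. Without the 36- and 40-base libraries NCU11646 (3.23, SE 0.27, limma adjusted p = 0.00078) and NCU02021 (1.92, SE 0.32, limma adjusted p = 0.046) were called higher and 0 of the 115 lower, where 0.0694% of all tested genes were called higher and 0.324% lower.

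Wild type itself had most of the 115 genes higher without carbon than on sucrose at 4 h, in libraries that the rule did not use. limma called 87 genes higher and 9 lower, and 19 did not pass, where 39.6% of all tested genes were called higher and 23.6% lower. That is 75.7% of the 115 called higher, with a median difference of 3.76 on the log2 scale, against 0.36 over all tested genes. Among the 73 genes kept without the short-read Avicel library, 52 were called higher and 8 lower, or 71.2% higher. By class, 25 of 30 genes of the no-carbon class, 13 of 13 of both classes, 7 of 9 of the sucrose class and 42 of 63 of neither class were called higher. The no-carbon class is defined with the same no-carbon libraries, and the sucrose class with the same wild-type sucrose libraries. Nothing is therefore read from the differences between classes. The ordered plot of these differences shows how few lie below 0.

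**Figure D3:**
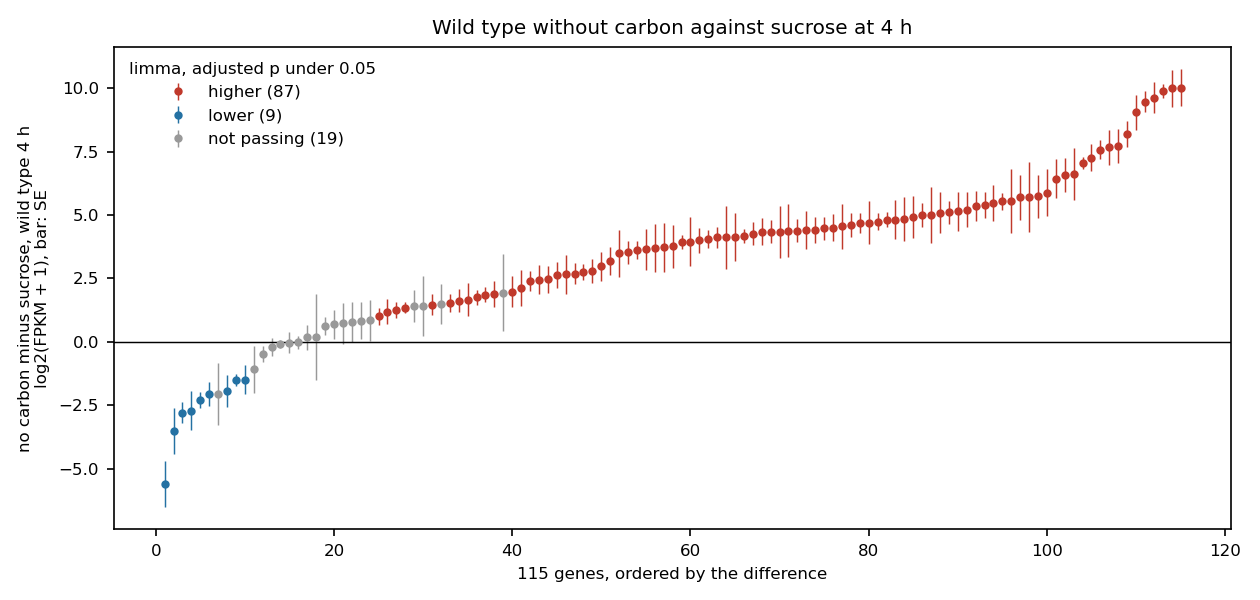
Difference between wild type without carbon and wild type on sucrose at 4 h for the 115 genes, as log2(FPKM + 1), ordered by size, with bars for the SE and colours for the limma call. The 87 genes called higher reach 10.02, and 9 genes are called lower.

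Several of these genes were near or at 0 on sucrose. NCU06895 had 2446, 2958 and 501.6 FPKM without carbon, against 0, 2.24 and 0 FPKM on sucrose at 4 h in wild type, a difference of 10.02 on the log2 scale (SE 0.74, limma adjusted p = 1.2e-07). The same gene had 5463 and 4036 FPKM in the clr-1 and clr-2 deletions on Avicel at 4 h, against 481.6, 1323 and 458.1 FPKM in wild type, and 1.43 and 1.62 FPKM in the deletions on sucrose. NCU01861 had 390.9, 878.5 and 1439 FPKM in wild type without carbon and was listed at 0 in the 3 wild-type libraries on sucrose at 4 h. NCU08771 had 3576, 4287 and 2581 FPKM in wild type without carbon, against 29.8, 23.7 and 21.5 FPKM on sucrose (7.05, SE 0.24, limma adjusted p = 2e-10), and the groups are far from overlapping.

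The genes named for known roles followed in part. nop-1, which encodes an opsin, had 836.1 and 839.8 FPKM in the clr-1 and clr-2 deletions on Avicel at 4 h, against 179.2, 408.3 and 408.2 FPKM in wild type. It had 801.2, 529.2 and 894.2 FPKM in wild type without carbon, against 0, 3.88 and 2.11 FPKM on sucrose at 4 h (8.19, SE 0.50, limma adjusted p = 2.7e-08). cat-1, a catalase gene, had 1316 and 1282 FPKM in the deletions on Avicel at 4 h, against 275.7, 761.1 and 669.3 FPKM in wild type, and 1397, 1343 and 2016 FPKM in wild type without carbon. It was higher without carbon than on sucrose by 5.21 on the log2 scale (SE 0.68, limma adjusted p = 1.7e-05), and so was ada-6, a transcription factor gene needed for conidiation, by 3.18 (SE 0.56, limma adjusted p = 0.00025). cat-1 and ada-6 are not among the 73.

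Both enzymes specific to the glyoxylate cycle are among the 115, acu-9 for malate synthase on supercontig 1 at 710761 to 713665 and acu-3 for isocitrate lyase on supercontig 5 at 5289821 to 5292173. acu-9 had 3765 and 1376 FPKM in the clr-1 and clr-2 deletions on Avicel at 4 h, against 572.1, 581.7 and 157.3 FPKM in wild type, and 833.3, 3843 and 862.7 FPKM in wild type without carbon. acu-3 had 1221 and 532.1 FPKM in the deletions, against 292.9, 229.5 and 151.0 FPKM in wild type, and 1874, 835.7 and 807.6 FPKM in wild type without carbon. In both genes the clr-1 deletion had more than 2 times the level of the clr-2 deletion, and the no-carbon libraries overlap the range of the deletions. Without carbon against sucrose at 4 h acu-9 rose in wild type (2.12, SE 0.72, limma adjusted p = 0.019), while acu-3 gave 1.5 (SE 0.78, limma adjusted p = 0.11) and did not pass. Of the 6 genes in the list for the glyoxylate cycle and gluconeogenesis 3 were called higher and 2 lower in that comparison. Of all tested genes 39.6% were called higher and 23.6% lower. The list median was 1.81, against 0.36 over all tested genes. fbp-1, for the gluconeogenic enzyme fructose-1,6-bisphosphatase, missed the rule at a ratio of 1.90 in the clr-2 deletion, with 1626 and 536.0 FPKM in the deletions on Avicel at 4 h, against 407.7, 282.9 and 152.9 FPKM in wild type.

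**Figure D4:**
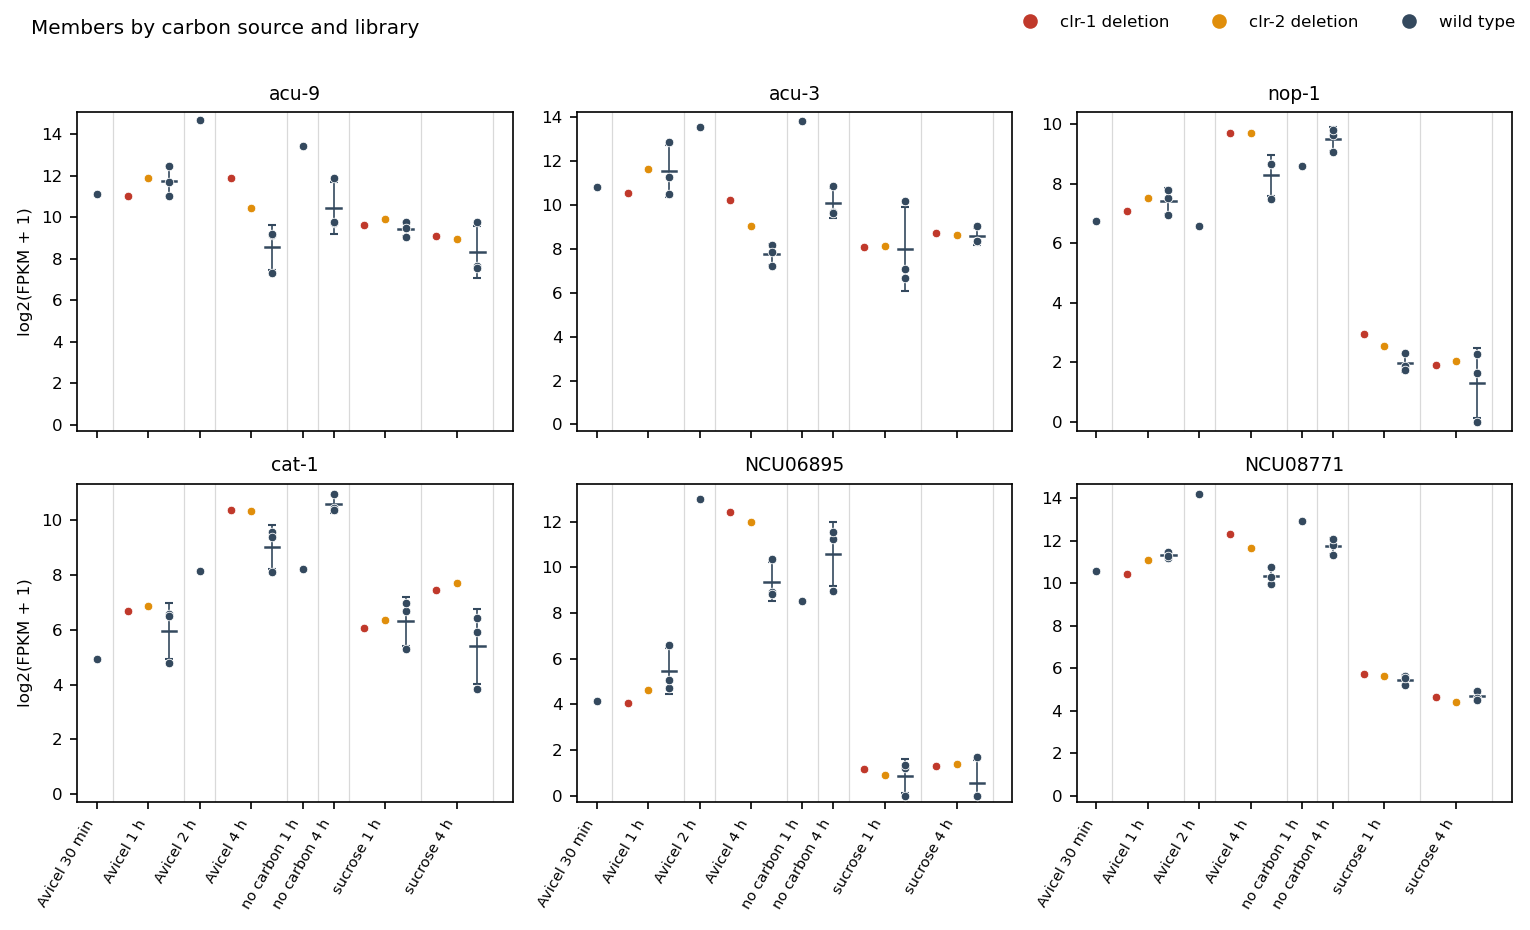
Level of 6 of the 115 genes, as log2(FPKM + 1), in every library by medium and time, with 1 dot per library and, for the wild-type triplicates, a line at the mean and a bar for the SD. On Avicel at 4 h both deletion libraries lie above the 3 wild-type libraries in each panel, and acu-9, acu-3, NCU06895 and NCU08771 are highest in wild type on Avicel at 2 h or without carbon at 1 h.

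The level without carbon set beside the deletions on Avicel at 4 h varied by gene. The deletions were both above the no-carbon mean in 70 genes, and both were at least 2 times it in 25. The no-carbon mean was between them in 19 and above both in 26. The rule chose high values in these deletion libraries, and shares over all tested genes were not taken. Nothing is therefore read from how often the deletions lie above the no-carbon mean. The no-carbon mean was above the wild-type Avicel mean in 105 of the 115 genes, a comparison that shares the wild-type Avicel libraries with the rule. In 67 of the 73 genes it was above the mean of the 2 remaining Avicel libraries, which the rule also used to keep the 73. Nothing is read from either count. The group with the highest level over all 16 was wild type on Avicel at 2 h in 34 genes, a no-carbon group in 36, a deletion on Avicel at 4 h in 34, wild type on Avicel at 30 min in 6 and a sucrose group in 5. The Avicel 2 h group is 1 library with 36-base reads. Of the 16 groups 11 are 1 library, set beside means of 3 in the others. The rule chose high values in the deletions on Avicel at 4 h, and shares over all tested genes were not taken. Nothing is read from where the highest level lies.

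The 9 genes that fell without carbon relative to sucrose in wild type were NCU04292, pho-4, NCU08216, NCU01633, NCU03416, NCU02705, NCU09659, NCU05683 and cys-16. NCU01633 had 116.7, 61.95 and 78.0 FPKM without carbon, against 3955, 4272 and 4026 FPKM on sucrose (-5.61, SE 0.91, limma adjusted p = 0.00012). In the deletions on Avicel at 4 h it had 1706 and 1304 FPKM, against 608.9, 831.1 and 42.9 FPKM in wild type. pho-4 had 9.61, 7.48 and 6.97 FPKM without carbon, against 27.2, 77.4 and 90.8 FPKM on sucrose (-2.71, SE 0.77, limma adjusted p = 0.0073). In NCU01633 and pho-4 both deletions on Avicel at 4 h lay between the wild-type means on Avicel and on sucrose.

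Many of the genes were already higher on Avicel than on sucrose at 1 h, in the deletions and in wild type. In the deletions at 1 h limma called 53 higher and 4 lower, where 25.3% were called higher and 16.4% lower, with medians of 1.41 and 0.28. In wild type at 1 h limma called 62 of the 115 genes higher on Avicel than on sucrose and 11 lower, where 37.3% of all tested genes were called higher and 24.6% lower, with medians of 1.78 and 0.34 on the log2 scale. The 2 comparisons share no library, and 51 of the 115 genes, or 44.3%, were called higher in both, where 24.2% of all tested genes were. NCU08771 rose in the deletions, with 1379 and 2171 FPKM on Avicel at 1 h, against 52.9 and 48.2 FPKM on sucrose (5.07, SE 0.29, limma adjusted p = 1.5e-07), and in wild type, with 2841, 2322 and 2512 FPKM, against 35.7, 49.1 and 45.4 FPKM (5.86, SE 0.24, limma adjusted p = 2.4e-09). acu-3 also rose in both, by 3.01 in the deletions (SE 0.96, limma adjusted p = 0.023) and by 3.57 in wild type (SE 0.78, limma adjusted p = 0.0013). The difference between the strains in this response was itself tested and limma called 0 of the 115 genes, with 12 (10.4%, against 5.59% of all tested genes) at an unadjusted p under 0.05, where 0.0% of all tested genes were called in either direction.

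The 63 genes of neither class hold many of the strongest transcripts. NCU03415 had 15320 and 11650 FPKM in the clr-1 and clr-2 deletions on Avicel at 4 h, against 3976, 6761 and 6142 FPKM in wild type, and 17330, 5620 and 9331 FPKM in wild type without carbon. Its no-carbon libraries overlap those on Avicel, which keeps it out of the no-carbon class, and at 1 h without carbon it reached 123600 FPKM. NCU09287 had 6653 and 5103 FPKM in the deletions on Avicel at 4 h, against 1381, 2932 and 2743 FPKM in wild type, and 3548, 4333 and 5127 FPKM without carbon. NCU09565 differed from these, with 684.1 and 633.9 FPKM in the deletions on Avicel at 4 h, against 89.7, 56.7 and 57.2 FPKM in wild type and 44.5, 80.7 and 65.2 FPKM without carbon. On sucrose at 4 h NCU09565 had 33.0 and 33.3 FPKM in the deletions, against 14.5, 25.7 and 23.04 FPKM in wild type (0.67, SE 0.39, limma adjusted p = 0.53).

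Several genes of neither class were spread widely among wild-type replicates. NCU04430 had 1719 and 591.1 FPKM in the clr-1 and clr-2 deletions on Avicel at 4 h, against 131.4, 148.6 and 45.3 FPKM in wild type, and 70.3, 1268 and 482.6 FPKM without carbon, so that replicates of the no-carbon group differ more than the strains do. NCU05499 had 2055 and 1522 FPKM in the deletions, against 257.6, 488.8 and 126.3 FPKM in wild type, and 801.6, 795.1 and 127.1 FPKM without carbon. aga-1, which encodes arginase, had 911.5 and 790.7 FPKM in the deletions on Avicel at 4 h, against 311.5, 511.9 and 314.0 FPKM in wild type, and fell on Avicel against sucrose at 1 h in wild type (-1.08, SE 0.32, limma adjusted p = 0.010). Of the no-carbon class, the cell wall protein gene acw-6 had 7606 and 7768 FPKM in the deletions on Avicel at 4 h, against 1709, 4656 and 4428 FPKM in wild type. Its no-carbon level of 7911, 8886 and 6237 FPKM and its sucrose level of 3131, 5063 and 5431 FPKM differed by less than the test could call (0.78, SE 0.78, limma adjusted p = 0.39). aga-1 and acw-6 are not among the 73.

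Some of the genes lie next to each other. By position in the files 16 of the 115 form 8 adjacent pairs, among them NCU02127 and NCU02126, 523 bases apart on supercontig 1. NCU02127 had 1558 and 778.8 FPKM in the deletions on Avicel at 4 h, against 193.3, 284.6 and 105.0 FPKM in wild type, and NCU02126 had 679.7 and 401.9 FPKM, against 97.5, 149.7 and 58.3 FPKM, with the order of the libraries the same in both. NCU07201 and NCU07200 on supercontig 5 are also neighbours, NCU07201 of the sucrose class and NCU07200 of neither class. NCU07201 had 171.0 and 168.7 FPKM in the deletions on Avicel at 4 h, against 42.3, 33.5 and 40.5 FPKM in wild type, and NCU07200 had 4449 and 1927 FPKM, against 1459, 560.5 and 268.7 FPKM. The genes lie on 7 supercontigs, their median length of 1612 bases is close to the 1599 of all genes, and 9 of them overlap another gene model.

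Of the 21 gene lists looked at, 4 hold a member of the 115 under a name that was matched to a gene. These members are acu-3 and acu-9, cat-1 of the 6 catalase and superoxide dismutase genes, pho-4 of the 5 phosphate genes, and pre-2. The entry aga of the list for arginine and proline was not matched to a gene. The arginase gene aga-1, which is among the 115, is therefore not counted in that list. None of the 8 conidiation genes in the files is a member. All 8 rose without carbon against sucrose in wild type, where 39.6% of all tested genes were called higher (median 6.45, against 0.36 over all tested genes). On Avicel at 4 h the median difference of these 8 genes between the deletions and wild type was 0.62, against 0.11 over all tested genes.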

How the data were processed

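Levels are FPKM from the authors' deposited files, 1 value per transcript. The submitters' processing notes name TopHat and Cufflinks 0.9.3. Transcripts (9907) were summed to 9733 genes. The deposited coverage signal and the transcript lengths, per the file headers, served only to recover reads, of which 88.0% to 93.6% of values came out whole within 0.02. The genome build and the strand used in counting are not given in the sources used here. Coordinates are 1-based, from the files.

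Group means of log2(FPKM + 1) were fitted with limma (version 3.58.1, R 4.3.3) over 26 libraries in 16 groups, 5 of 3 libraries and 11 of 1. Genes whose overall mean reached 1 FPKM were tested, 8629 in number with all 115 among them, with an eBayes trend and 10 residual degrees of freedom. Tests are two-sided, and p values were adjusted by Benjamini-Hochberg over all tested genes. Deletion contrasts take the mean of both deletion libraries, which are assumed to vary like wild type. p values measure the spread between samples labelled as replicates. The fold changes understate low genes. Counting error is not included.

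The members and lists were chosen with earlier results of these data known. Genes named were clr-1 and clr-2, members with a symbol or in a list, the 12 largest ratios, the 6 highest per class, and 3 genes on either side of the limit. Other genes were chosen after their values were seen. They are matA-1, ccg-4, pre-1, fbp-1, NCU01633, the adjacent pairs and some lower or single-class genes. Lists defined by product text were not used. Same-numbered wild-type libraries on Avicel and sucrose at 1 h deviated together (correlations 0.283, 0.176 and 0.236), so a fit with a replicate block was added. Replicate 1 has 36-base reads in both groups and the other replicates have 50, so paired cultures and shared read length cannot be told apart. The tests of differences between responses, and those without short reads, were added after the data were seen. The fit was also run on simulated data, with the same spread in every library and changes set only in genes of higher level. That run does not bear on low genes, on the short-read libraries or on the spread of the deletion strains.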

Additional observations from a re-analysis of the deposited data

How the results depend on the processing

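The number of genes that meet the rule depends on its limits. It was 446 at 1.5-fold and 29 at 3-fold, and between 136 and 190 without 1 wild-type Avicel library. The tests against sucrose in wild type and in the deletions held their counts within 1.5 times under every pseudocount, filter, trend, scaling and left-out library tried, except that the deletions at 1 h gave 28 calls for the clr-1 deletion alone and 36 for the clr-2 deletion alone, each resting on 1 library, where 18.2% and 26.4% of all tested genes were called in either direction. The replicate block gave 86 calls for wild type Avicel against sucrose at 1 h. The same 6 libraries without it gave 77 and the fit of all libraries 73, and the block changed no count by over 1.5 times. For no carbon against sucrose the same numbers did not deviate together (correlations -0.118, -0.096 and -0.019), and the block gave 97 calls, against 95 for the same 6 libraries without it.

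The deletions against wild type on sucrose at 4 h gave 1 call with a pseudocount of 0.1 or 10, without the filter, without the trend and after rescaling, 0 to 5 without 1 wild-type library (5 without replicate 1) and 24 without the 36- and 40-base libraries. At 1 h they gave 2 without the filter, without the trend and after rescaling, 0 to 1 without 1 library (0 without replicate 3, and 1 other gene, called lower, without replicate 1), 0 for each deletion alone by limma (13 and 9 genes at an unadjusted p under 0.05 for the clr-1 and clr-2 deletions, where 4.43% and 2.5% of all tested genes had one), and 13 without the short-read libraries, 10 higher and 3 lower. On Avicel at 1 h that setting gave 2. Of 983 alternatives for 75 results on single genes, 958 gave the same call, 25 lost it, and 0 turned the direction.

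Limits remain. Each deletion group is 1 library, so the strains' own spread was not measured. Differences on sucrose rest in part, as in pre-2 and NCU02021, on levels near the floor of the deposited values, where a 0 can mean too few reads. The sucrose and Avicel triplicates hold a short-read library each, and the count of higher genes on sucrose at 4 h changed without it as given above. Not called does not show that the strains are alike.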
